A study of Mus musculus with 12 samples.

Results

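The mitochondrial ribosomal proteins are the nuclear-encoded proteins of the ribosome that works inside mitochondria. Their genes were taken from the expression table by name: every symbol made of Mrpl or Mrps, a number and at most 1 letter. This rule gave 76 of the 27013 genes in the table, and no measured value entered it. Of the 76, 75 were among the 10778 genes that the authors tested, and Mrps10 was not. The 76 genes lie on 17 chromosomes in the RefSeq annotation of GRCm38.p6, whose coordinates are those of mm10.

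The mitochondrial ribosome translates the few mRNAs that mitochondrial DNA encodes, all of which specify subunits of the respiratory chain and ATP synthase. Its ribosomal RNAs come from mitochondrial DNA, while all of its proteins are made in the cytosol from nuclear genes and imported. Some of these proteins have a counterpart in bacterial ribosomes and others are particular to mitochondria, as known from structures of the human and pig particles. N6-methyladenosine (m6A) is a methyl mark on mRNA, often found near stop codons. YTHDF2 is a cytoplasmic protein that binds m6A and recruits the machinery that shortens poly(A) tails, which promotes mRNA decay.

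The study used bone marrow of C57BL/6 mice that carried a conditional knockout (cKO) of Ythdf2 or were wild type (WT). All cells were cultured for 7 days with 20 ng/ml M-CSF, which turns marrow cells into macrophages, and then for 24 h with 100 ng/ml LPS and 20 ng/ml IFN-γ to give M1-type macrophages. Its 12 libraries fall into 6 groups of 2: m6A immunoprecipitates and inputs of cKO cells, the same of WT cells, and YTHDF2 immunoprecipitates and inputs of WT cells. RNA for m6A sequencing was polyadenylated and cut to about 100 nucleotides. The labels do not name the Cre driver of the knockout or say whether replicates were different mice or different cultures. The spread behind every p-value below may therefore be technical.

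None of the files used held a value per library, so no level can be given sample by sample and library depth is unknown. The input RNA of 2 cKO and 2 WT libraries is available as the authors' own comparison, with a mean normalized count, a log2 fold change, its standard error (SE) and a p-value for each gene. Which genotype is the numerator of that fold change is not given in any source used here. Ythdf2, the deleted gene, stood at 1.10 ± 0.16 (log2 fold change ± SE) in the authors' deposited table. Its adjusted p from the Wald test there was 2.06e-09. Below, fold changes with the same sign as this row are named the side of Ythdf2, and those under 0 the opposite side. These names give the sign alone. Which parts of the gene the Ythdf2 reads came from is unknown, so its sign may not show which genotype was higher. That was not tested. All 10 macrophage markers were tested in that table, as were 9 of 10 genes of M1 stimulation, 3 of 10 neutrophil markers and 0 of 6 dendritic cell markers. Of 5 T and NK cell genes in the table Cd4 alone was tested, at 0.79 ± 0.25 in the authors' deposited table (p after adjustment 0.0622), while Cd3e had a mean normalized count of 0.540. Of 5 B cell genes Cd79b alone was tested, at -0.94 ± 0.48 in the authors' deposited table (p after adjustment 0.499). Of the macrophage markers 3 were called in the authors' deposited table, Lyz2 at -1.49 ± 0.33, Itgam at -0.55 ± 0.11 and Cd68 at 0.40 ± 0.11. The M1 genes Cxcl9 and Cxcl10 were called at 0.62 ± 0.15 and 0.55 ± 0.13 in that table, and 1 of 4 tested fibroblast markers, Col1a1, at 0.56 ± 0.17. Their part in the results below was not tested.

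In the input RNA, 0 of the 75 tested mitochondrial ribosomal protein genes changed at an adjusted p under 0.05 in the authors' deposited table, where 2.32% of all tested genes did (1.76% positive and 0.557% negative). The values of the family nevertheless leaned to 1 side: 60 of 75 members, or 80.0%, had a log2 fold change below 0, against 51.3% of all tested genes. The lean was small. The members' median log2 fold change was -0.08, with quartiles of -0.20 and -0.01, while the median over all tested genes was -0.01, with quartiles of -0.14 and 0.12. No test was made of this shift of the family. In bulk samples, fewer cells of a type and less RNA per cell cannot be told apart.

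The fold changes of the members ran from -0.51 to 0.22. Thus 0 of 75 reached 1.5-fold in either direction, whereas 419 of all tested genes (3.89%) did. Nearer to 0 the shares were alike, with 53 of 75 members (70.7%) and 67.5% of all tested genes within 0.2 of 0. For 61 of the 75 members, or 81.3%, the 95% interval of the fold change lay wholly within 1.5-fold either way, against 63.8% of all tested genes. For the other 14 members the interval reached past 1.5-fold on at least 1 side, and 8 of these 14 had a mean normalized count under 300 in the authors' deposited table. The Wald statistic of the members had a standard deviation of 0.834, against 1.26 over all tested genes. The SE of the members had a median of 0.172, close to the median of 0.167 over all tested genes. Its maximum was 0.405 in members and 3.57 over all tested genes. By mean count, 4 of the 75 members lay in the lowest quartile of all tested genes and 0 in the highest. The part of read counts in these differences was not tested.

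**Figure D1:**
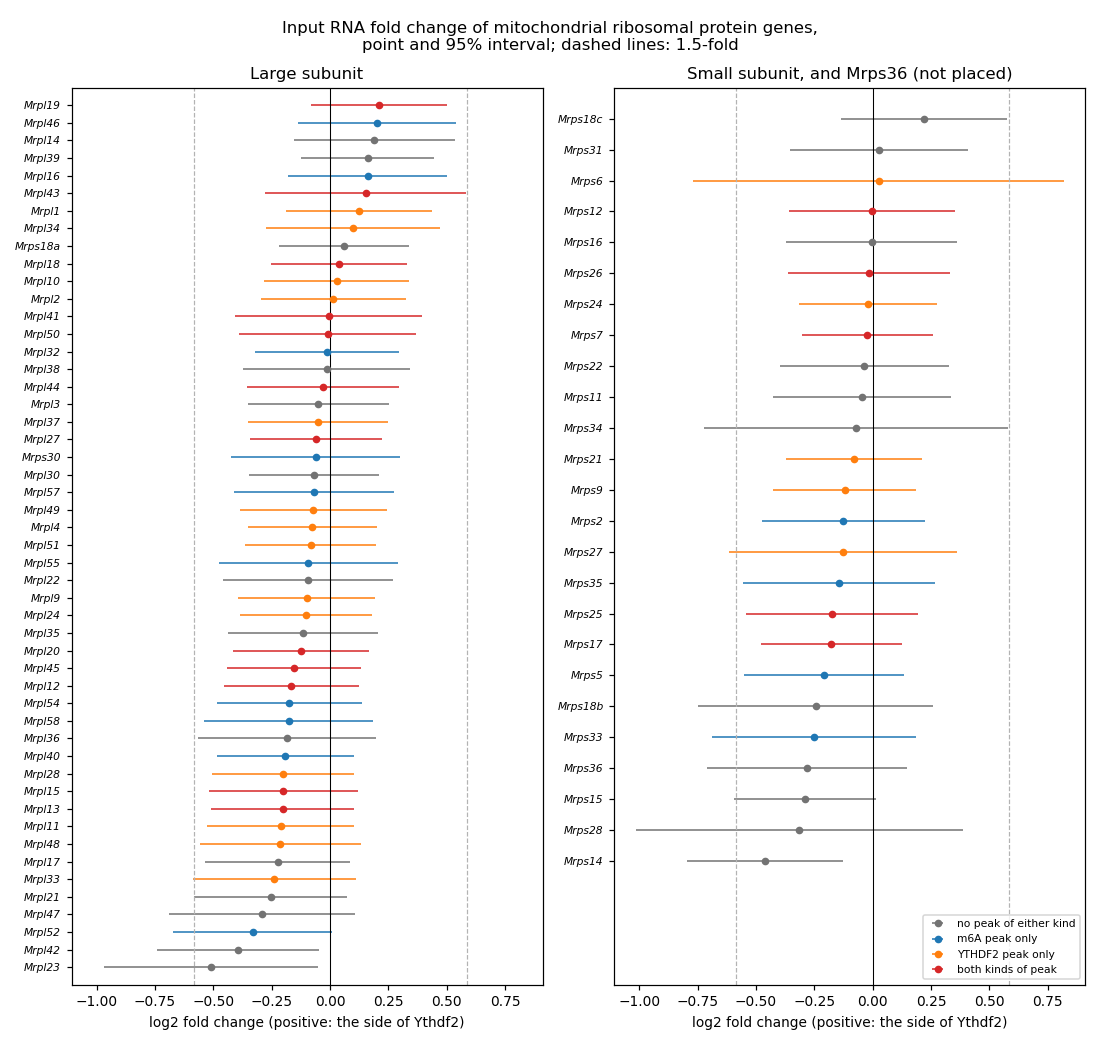
Log2 fold change of input RNA between the genotypes (x axis, positive on the side of Ythdf2) for each of the 75 tested members, with the authors' estimate as a point and the 95% interval as a line. Large-subunit members are on the left, small-subunit members and Mrps36 on the right, and colours give the peaks a gene carried in WT cells. Most points lie left of 0, between -0.51 and 0.22, and the intervals of Mrps14, Mrpl42 and Mrpl23 alone leave out 0.

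At an unadjusted p under 0.05 the authors' deposited table held 0 members on the side of Ythdf2, where the background is 6.28%, and 3 members (4.00%) on the opposite side, where the background is 3.71%. These were Mrps14, Mrpl42 and Mrpl23. Mrps14, a protein of the head of the small subunit with a bacterial counterpart, lies on chromosome 1 at chr1:160195215-160201186. In the authors' deposited table it stood at -0.46 ± 0.17 (unadjusted p 0.0071, adjusted p 0.167, mean normalized count 670). Mrpl42, a mitochondria-particular protein of the large subunit at chr10:95480805-95501949, stood at -0.39 ± 0.18 (adjusted p 0.354, mean normalized count 781). Mrpl23, whose bacterial counterpart sits at the exit of the peptide tunnel, lies at chr7:142532467-142540747. It had the lowest log2 fold change of the tested members in the authors' deposited table, -0.51 ± 0.23 (adjusted p 0.386, mean normalized count 268). None of these 3 genes carried an m6A or a YTHDF2 peak in WT cells.

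The large subunit holds the centre that joins amino acids and the tunnel through which the new chain leaves. Its 50 members include Mrps30 and Mrps18a, which are named as small-subunit proteins but sit in the large one. Of these 50, 38 (76.0%) lay below 0, with a median log2 fold change of -0.08. After Mrpl42 and Mrpl23, the next members by size of the Wald statistic were the mitochondria-particular Mrpl52 at -0.33 ± 0.17 and Mrpl21 at -0.25 ± 0.17 in the authors' deposited table. Mrpl21 belongs to the core with bacterial counterparts, as do the 4 genes that follow. In the authors' deposited table Mrpl47 stood at -0.29 ± 0.20, Mrpl17 at -0.22 ± 0.16, and Mrpl33 at -0.24 ± 0.18. Mrpl11, at the base of the stalk that recruits translation factors, stood at -0.21 ± 0.16 there. Adjusted p-values of these 6 genes ran from 0.535 to 0.818.

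Some large-subunit members lay on the side of Ythdf2, and 0 passed the test. Mrpl19 stood highest among them, at 0.21 ± 0.15 in the authors' deposited table (p after adjustment 0.775). The mitochondria-particular Mrpl46 stood at 0.20 ± 0.17 and Mrpl39 at 0.16 ± 0.14, also in the authors' deposited table. Mrpl14 and Mrpl16, counterparts of bacterial proteins of the large subunit, stood at 0.19 ± 0.18 and 0.16 ± 0.17 in the authors' deposited table. Mrpl1, a protein of the stalk on the side where spent tRNA leaves, stood at 0.12 ± 0.16 there, and Mrpl43 at 0.15 ± 0.22. The smallest of the 10 leading positive members were Mrpl34 at 0.10 ± 0.19 and Mrps18a at 0.06 ± 0.14 in the authors' deposited table. Every one of these intervals included 0.

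The small subunit holds the mRNA and the decoding centre. Of its 25 members 24 were tested, and 21 of these (87.5%) lay below 0, with a median log2 fold change of -0.10. After Mrps14 came Mrps15, which has a bacterial counterpart, at -0.29 ± 0.15 in the authors' deposited table (p after adjustment 0.549). Of the 3 small-subunit members above 0, Mrps18c stood highest, at 0.22 ± 0.18 (0.842 for the adjusted p) in the authors' deposited table. Mrps12, a protein of the decoding centre, was at -0.00 ± 0.18 there. The shares below 0 in the large and small subunits were not tested against each other. Mrps36, now known as a component of the 2-oxoglutarate dehydrogenase complex, was placed in neither subunit and stood at -0.28 ± 0.22 in the authors' deposited table.

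A split by evolutionary origin gave like fold changes. Among 45 tested members with a bacterial counterpart 35 lay below 0, with a median log2 fold change of -0.09. Among 29 mitochondria-particular members 24 lay below 0, with a median of -0.07.

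Precision differed with the read counts behind each gene. The mean normalized count, which is not per length and so ranks no gene above another in expression, ran from 69.9 to 1774 among tested members, with a median of 633 against 739 over all tested genes. Mrpl45, which anchors the particle at the inner membrane, had the most reads (1774) and stood at -0.15 ± 0.15 in the authors' deposited table. Mrpl39, Mrps18a, Mrpl30, Mrpl4 and Mrpl51 followed with mean counts from 1353 to 1092. Of these, Mrpl30 stood at -0.07 ± 0.14, Mrpl4 at -0.08 ± 0.14 and Mrpl51 at -0.08 ± 0.14 in the authors' deposited table, among the narrowest errors of the family.

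The 4 tested members with the fewest reads were small-subunit genes with wide intervals. Mrps6 (mean count 69.9) stood at 0.03 ± 0.40 in the authors' deposited table, with a 95% interval from -0.77 to 0.82. Mrps28 (mean count 92.6) stood at -0.31 ± 0.36, with an interval from -1.02 to 0.39 in the authors' deposited table. Mrps34 (mean count 106) and Mrps18b (mean count 225) stood at -0.07 ± 0.33 and -0.25 ± 0.26 in the authors' deposited table. Each of these 4 intervals still contained a 1.5-fold difference on at least 1 side. Mrps10, which was not tested, had a mean count of 3.39 and a log2 fold change of -1.10 ± 1.86 there. Of the 76 members, 23 overlap another RefSeq gene, Mrps6 with Slc5a3 and Mrps28 with predicted genes among them. How the authors assigned reads in such overlaps is not stated in any source used here, so the values of these 23 genes may include reads of a neighbour.

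Of the other proteins of mitochondrial translation 1 was called, as described below. Of the mitoribosome proteins that carry other names, Dap3 and Ptcd3 of the small subunit stood at 0.02 ± 0.15 and -0.18 ± 0.19 in the authors' deposited table. Chchd1, also a small-subunit protein, stood at -0.16 ± 0.15 and Aurkaip1 at 0.05 ± 0.13 in that table, and Gadd45gip1 (mean count 41.2) was not tested. Among 23 tested assembly factors of the mitoribosome 0 were called and 16 lay below 0, with a median log2 fold change of -0.07. The furthest were Tfb1m, which methylates the small ribosomal RNA, at -0.69 ± 0.40, and the GTPase Noa1 at -0.45 ± 0.32 in the authors' deposited table. Among 14 tested mitochondrial translation factors 0 were called and 9 lay below 0, with a median of -0.06. The elongation factor Tufm stood at -0.20 ± 0.15 and the initiation factor Mtif3 at 0.25 ± 0.21 in the authors' deposited table.

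Of 17 mitochondrial aminoacyl-tRNA synthetases 1 was called. This was Lars2, which charges leucine tRNA, at 0.81 ± 0.11 (3.46e-11 for the adjusted p) in the authors' deposited table, with a mean normalized count of 247912. The next highest mean count of the 17 was 1582, in Iars2. Whether all reads counted for Lars2 come from its mRNA was not tested. The median of those 17 was -0.14, and Cars2 stood at -0.31 ± 0.21 in the authors' deposited table. Of 8 genes of mitochondrial DNA replication and transcription 0 were called and 7 lay below 0 (median -0.12), with the DNA polymerase Polg at -0.13 ± 0.14 in the authors' deposited table. The 2 RNAs around which the proteins assemble were called on the side of Ythdf2. In the authors' deposited table mt-Rnr1, the small ribosomal RNA, stood at 0.50 ± 0.13 (adjusted p 0.0114) and mt-Rnr2, the large one, at 0.59 ± 0.16 (adjusted p 0.0178). Both lay on the side opposite to most of the proteins. The libraries were made from polyadenylated RNA, and how much of the ribosomal RNA such a preparation keeps was not measured. Of the 13 protein-coding genes of mitochondrial DNA 9 were tested, 0 were called and 8 lay below 0 (median -0.16). Their values were less precise, with a median SE of 0.481, against 0.172 in the members.

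The lean below 0 was larger in 2 other sets of housekeeping genes. Of 73 nuclear-encoded subunits of oxidative phosphorylation, which build the respiratory chain, 0 were called and 63 (86.3%) lay below 0, with a median log2 fold change of -0.15. Ndufa12, a complex I subunit, stood at -0.56 ± 0.20 (0.120 for the adjusted p) in the authors' deposited table. Of 77 cytosolic ribosomal proteins 3 were called, all on the opposite side to Ythdf2, and 75 (97.4%) lay below 0, with a median of -0.26. Among them were Rpl3 at -0.60 ± 0.17 and Rpsa at -0.44 ± 0.13 in the authors' deposited table. The type I interferon response, a set of antiviral genes that LPS and IFN-γ induce, lay the other way: 7 of 13 genes were called, 0 lay below 0, and the median was 0.49, with Ifit1 at 0.56 ± 0.10 in the authors' deposited table. Differences between these sets were not tested.

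**Figure D2:**
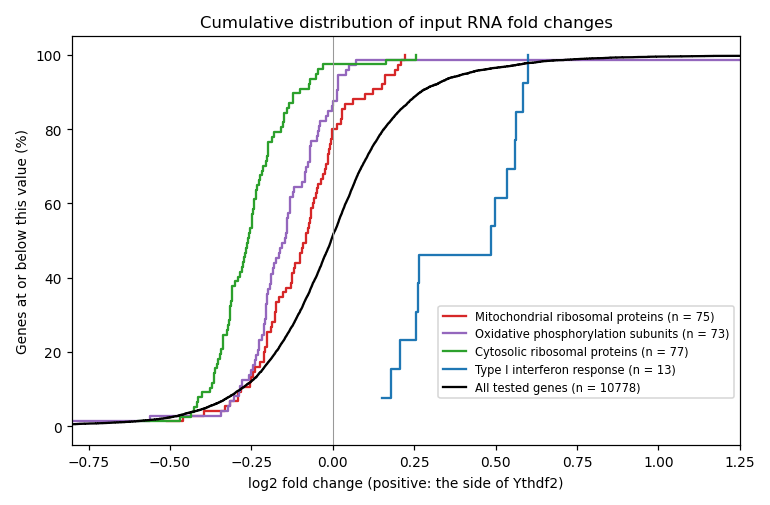
Cumulative share of genes (y axis, percent) at or below each log2 fold change of input RNA (x axis, positive on the side of Ythdf2) for mitochondrial ribosomal proteins, other gene sets and all tested genes. The curve of the mitochondrial ribosomal proteins (median -0.08) lies between that of all tested genes (median -0.01) and those of oxidative phosphorylation subunits (median -0.15) and cytosolic ribosomal proteins (median -0.26), and genes beyond the ends of the x axis are not drawn.

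The m6A peak list of WT cells gave 36 peaks in 31 of the 75 tested members, or 41.3%, against 45.4% of all tested genes. It is a single list for the WT group with no level or p per peak, so the presence of a peak has no replicate check, and cKO peaks were not analysed here. The members' peaks spanned a median of 275 bp, against 325 bp for all 10290 peaks, and ranged from 50 bp in Mrpl44, Mrpl58, Mrps17 and Mrps35 to 4598 bp in Mrpl13. Mrpl13, Mrpl58, Mrps30, Mrps35 and Mrps7 had 2 m6A peaks each. Mrpl58 is a peptidyl-tRNA hydrolase built into the large subunit that frees stalled chains, and Mrps7 is a small-subunit protein of the head with a bacterial counterpart.

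Mitochondria-particular members carried the m6A peak more often than members with bacterial counterparts in this list: 16 of 29 (55.2%) against 15 of 45 (33.3%). Within the large subunit the shares were 12 of 20 and 10 of 30, and within the small subunit 4 of 9 and 5 of 15. YTHDF2 peaks ran the other way, with 12 of 29 (41.4%) mitochondria-particular members and 24 of 45 (53.3%) members with a bacterial counterpart. These splits have no test.

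YTHDF2 peaks, also a single WT list, were found in 36 of the 75 members, or 48.0%, against 64.6% of all tested genes. The list's own assignment of peaks to genes was used, and with peaks within 1000 bp of the RefSeq gene alone the counts were 35 members (46.7%) and 64.2% of tested genes. All names in this list begin with a label for m6A peaks, although its labels describe YTHDF2 immunoprecipitation. The reason for these names is not stated. Both kinds of peak occurred in 17 members (22.7%), against 35.9% of all tested genes. Another 14 members had an m6A peak alone: Mrpl16, Mrpl32, Mrpl40, Mrpl46, Mrpl52, Mrpl54, Mrpl55, Mrpl57, Mrpl58, Mrps2, Mrps5, Mrps30, Mrps33 and Mrps35. A YTHDF2 peak alone was found in 19 members: Mrpl1, Mrpl2, Mrpl4, Mrpl9, Mrpl10, Mrpl11, Mrpl24, Mrpl28, Mrpl33, Mrpl34, Mrpl37, Mrpl48, Mrpl49, Mrpl51, Mrps6, Mrps9, Mrps21, Mrps24 and Mrps27. The other 25 tested members had neither, among them Mrpl3, Mrpl22, Mrpl35, Mrpl36, Mrpl38, Mrps11, Mrps16, Mrps22 and Mrps31 and, of the genes described above, Mrps14, Mrps15, Mrps28, Mrps34, Mrps36, the Mrps18 family, Mrpl14, Mrpl17, Mrpl21, Mrpl23, Mrpl30, Mrpl39, Mrpl42 and Mrpl47. The untested Mrps10 also had neither. Mrpl53 had a YTHDF2 peak but is not a row of the expression table and was not counted.

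Because peaks are found more often in genes with more reads, the shares were also set within quartiles of the mean normalized count of all tested genes. In the second quartile (247 to 739), 19 of 43 members (44.2%) had an m6A peak, against 42.5% of genes, and 16 (37.2%) had a YTHDF2 peak, against 62.0% of genes. In the third quartile (740 to 1898), 12 of 28 members (42.9%) had an m6A peak, against 57.1% of genes, and 19 (67.9%) had a YTHDF2 peak, against 79.5%. Of the 4 members in the first quartile 0 had an m6A peak, against 14.2% of genes, and 1 of the 4 had a YTHDF2 peak, against 28.0% of genes. The fourth quartile held 0 members. The YTHDF2 share of the members was thus below that of genes with like read counts in quartiles 2 and 3, and the first holds too few members to read. The m6A share was near that of the genes in the second quartile and below it in the third. Low shares were not particular to the members. Of 77 tested cytosolic ribosomal proteins 35.1% had a YTHDF2 peak and 20.8% an m6A peak. Of 73 oxidative phosphorylation subunits 38.4% and 19.2% did. These 2 sets were not split by read count.

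**Figure D3:**
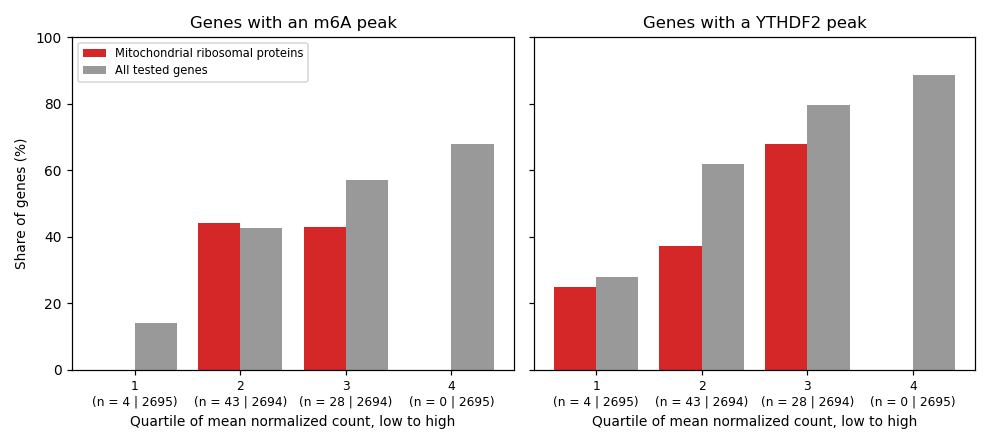
Share of genes (y axis, percent) with an m6A peak (left) or a YTHDF2 peak (right) in WT cells, for mitochondrial ribosomal proteins and all tested genes, by quartile of mean normalized count (x axis, with the number of members and of genes). In the second quartile 37.2% of members carried a YTHDF2 peak, against 62.0% of genes, while the m6A shares were 44.2% and 42.5%.

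The 36 members held 47 YTHDF2 peaks. Their fold enrichment over input at the summit, the authors' own value for each peak, had a median of 2.89 (range 1.59 to 6.59), against 3.01 for all 17843 peaks. Mrps9, a small-subunit protein with a bacterial counterpart, held the highest, a 345 bp peak at chr1:42905250-42905594 with a fold enrichment of 6.59, which ranked at percentile 98.3 of the list. Its summit lay in the coding sequence, at -61 bp relative to the stop codon. Mrpl28 of the large subunit came next, at chr17:26126121-26126496 with a fold of 5.67, and its summit lay at -99 bp relative to the stop codon. The mitochondria-particular Mrpl50 followed with a 3′ UTR peak at chr4:49512885-49513338 and a fold of 5.07.

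Other strong peaks had their summits in an intron, in the 3′ UTR or close to the stop codon. For Mrpl1, Mrpl2 and Mrpl19 the position of the stop codon was not known, so no distance to it can be given. Mrpl2, a protein near the peptidyl transferase centre, had an intronic summit at chr17:46648120-46648526 (fold 4.58), and Mrpl1 another at chr5:96264057-96264275 (fold 4.57). Mrps26 had an intronic summit at chr2:130563933-130564365 (fold 4.58) and a second peak at chr2:130564785-130565206 (fold 3.45) in its last coding stretch. Mrpl19 had a 3′ UTR peak at chr6:81959775-81960090 (fold 4.32). Mrps25 and Mrpl37 held 3 peaks each, the most in the family, of which the strongest lay at chr6:92174906-92175268 (fold 4.14) and chr4:107056007-107056227 (fold 3.84). These 2 peaks and that of Mrpl11 at chr19:4964552-4964812 (fold 4.09) had their summits at -35, -51 and -43 bp relative to the stop codon. At the low end were Mrpl27 with a fold of 1.59 and Mrpl15 with 1.67.

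Summits of the members lay in the coding sequence more often than summits of the whole list. A summit in several features was given the first of 3′ UTR, coding sequence, 5′ UTR and intron. For members, the features of the member alone were used. For the whole list, those of every gene listed with the peak were used, and the effect of this on the shares was not tested. Of 45 summits that fell in a listed transcript feature, 23 (51.1%) were in the coding sequence, 15 (33.3%) in the 3′ UTR, 7 (15.6%) in an intron and 0 in the 5′ UTR. Over the whole list the shares were 35.7%, 39.2%, 23.1% and 2.02% of 17621 summits. The remaining 2 were the second peak of Mrps7, at chr11:115608024-115609820, which runs past the end of the gene towards Mif4gd, and the only peak of Mrps24. That peak, at chr11:5715145-5718094, spans 2950 bp and lies 7444 bp outside the RefSeq gene; the list assigns it through an Ensembl transcript. A peak that touched both the last coding stretch and the 3′ UTR was counted as containing the stop codon: 22 of 47 members' peaks (46.8%) did, against 22.4% of the whole list. Beside these stop codons the 3′ UTR exon was short, with a median of 561 bp in the 22 members, against 980 bp in 3932 tested genes placed in the same way. Counted by gene, a YTHDF2 peak across the stop codon was placed in 22 of the 36 members with a YTHDF2 peak. Among tested genes it was placed in 3932 of the 6958 with such a peak, so the shares by gene lay closer together than those by peak. Whether the number of peaks per gene, peak length, UTR length or read depth accounts for the difference in shares by peak was not tested.

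**Figure D4:**
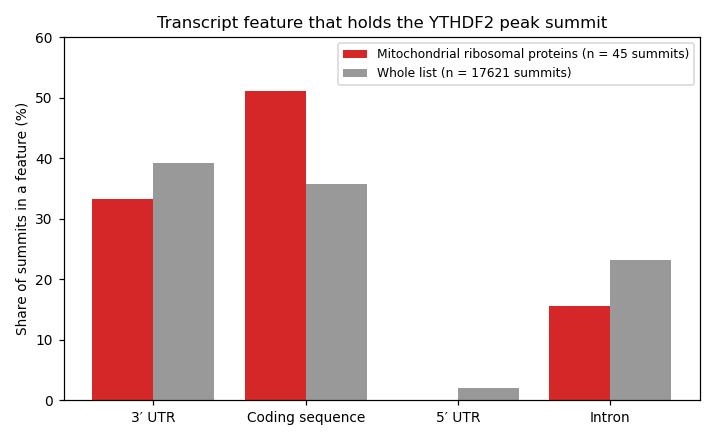
Share of YTHDF2 peak summits (y axis, percent) in each transcript feature, for 45 summits of mitochondrial ribosomal protein genes and 17621 summits of the whole list. Coding sequence holds 51.1% of the members' summits, against 35.7% of the whole list.

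Where both kinds of peak were present they often covered the same stretch. In 12 of the 17 members with both (70.6%) an m6A peak shared at least 1 bp with a YTHDF2 peak, against 75.1% of 3847 tested genes with both. These were Mrps26, Mrps25, Mrps12, Mrpl13, Mrpl45, Mrpl41, Mrpl12, Mrpl43, Mrps7, Mrpl20, Mrpl18 and Mrpl27, in order of the overlapping YTHDF2 peak's fold enrichment. Counted by peak, 13 of 36 m6A peaks of members (36.1%) overlapped a YTHDF2 peak of the same gene, against 47.5% of the 9293 m6A peaks that could be placed on a chromosome. In the other direction 14 of 47 YTHDF2 peaks of members (29.8%) overlapped an m6A peak, against 22.6% of the whole list. In Mrpl15, Mrpl19, Mrpl44, Mrpl50 and Mrps17 the peaks did not touch.

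In 9 of these 12 genes both peaks contained the stop codon. Its position was known for the 22 members with a YTHDF2 peak across it, whose 13 m6A peaks contained it in 9 cases (69.2%). No such share is given here for other genes, so whether it is high in this family is unknown. In Mrps12 the m6A peak at chr7:28739641-28739890 held the YTHDF2 summit, which lay 33 bp past the stop codon in a peak at chr7:28739731-28739957 (fold 3.79). In Mrpl13, a large-subunit protein with a bacterial counterpart, the YTHDF2 peak at chr15:55534246-55534470 (fold 3.42) lay inside an m6A peak at chr15:55534094-55538691. Mrpl45 was different: its m6A peak at chr11:97328575-97328849 began 6 bp past the stop codon, while the YTHDF2 peak at chr11:97328388-97328847 (fold 3.26) crossed it. Mrps25 and Mrps26 had wide m6A peaks over the stop codon, at chr6:92174800-92175799 and chr2:130564357-130565437. That of Mrps26 also touched the end of its intronic YTHDF2 peak at chr2:130563933-130564365 (fold 4.58), which set its place in the order above. The place of Mrps7 was set by its second YTHDF2 peak (fold 2.25), which runs past the end of the gene and overlaps a 97 bp m6A peak. The other overlapping YTHDF2 peak of Mrps7 had a fold of 2.12, below that of Mrpl20 (2.18). The m6A list gives a start and an end for each peak, so whether a wide span is covered throughout is unknown.

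**Figure D5:**
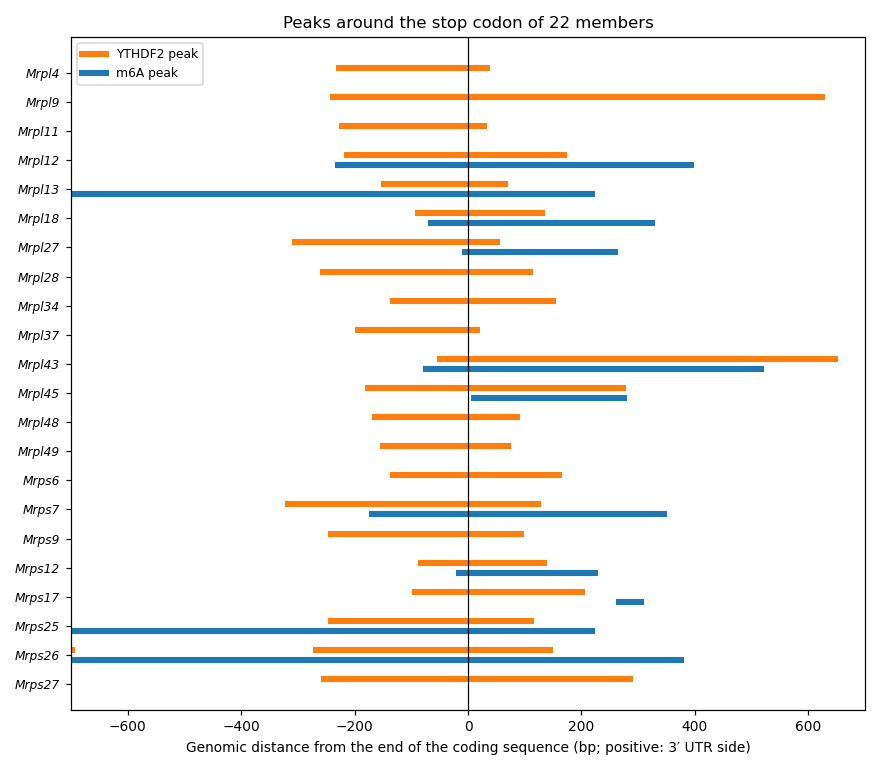
Genomic distance from the end of the coding sequence (x axis, bp, 3′ UTR side positive, shown to 700 bp on either side) covered by YTHDF2 peaks and m6A peaks in the 22 members whose stop codon could be placed (rows). Every YTHDF2 peak at this site crosses 0 by the way the genes were placed, and 9 of 13 m6A peaks of these genes contain it too, 3 of which run past the left edge.

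The fold changes of input RNA were also set beside the peaks, with no test between the classes. Members with an m6A peak had a median log2 fold change of -0.09 and those without one -0.08. Members with a YTHDF2 peak had a median of -0.07 and those without one -0.12. The 17 members with both kinds had a median of -0.03, with 14 below 0, and the 25 tested members with neither had -0.09, with 20 below 0. The 14 members with an m6A peak alone had a median of -0.13, with 12 below 0, and the 19 with a YTHDF2 peak alone had -0.08, with 14 below 0. Over all tested genes the medians were 0.03 with and -0.05 without an m6A peak, 0.01 with and -0.05 without a YTHDF2 peak, and 0.03 with both and -0.07 with neither. Read depth moves with these classes, since the members with both kinds had a median mean count of 813 and those with neither 509. Its part in the medians was not tested. Among the 12 members with overlapping peaks the log2 fold change ran from -0.20 to 0.15, 10 lay below 0, and the lowest adjusted p was 0.822 in the authors' deposited table.

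Within quartiles of read count the members stayed below the other genes on the log2 fold change. The medians were -0.07 for members and -0.03 for genes in the second quartile, where 34 of 43 members and 56.7% of genes lay below 0. In the third quartile they were -0.09 for members and -0.00 for genes, where 23 of 28 members and 51.0% of genes lay below 0.

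Member promoters were read from the RefSeq table of GRCm38.p6, which held 73 start sites of 67 members. Fold changes were not compared between members with and without the motifs below, so a link between motif and fold change was not tested. Promoters of genes for mitochondrial proteins are known to bind the ETS factor GABPA, the factor NRF1 and YY1. The 60 bases before the start are shown for 6 members, chosen because they hold a match to a short form of these motifs or, in Mrpl52 and Mrps26, also because the gene stands out above. Capitals mark a match to CCGGAAG (ETS), GCATGCGC (NRF1) or AAGATGGC (YY1) on either strand, and each is written 5′ to 3′ on the gene's strand.
Mrpl22 (chr11:58171604-58171663, plus strand, ETS and NRF1): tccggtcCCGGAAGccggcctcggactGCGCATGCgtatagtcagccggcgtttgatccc
Mrpl43 (chr19:45006443-45006502, minus strand, ETS): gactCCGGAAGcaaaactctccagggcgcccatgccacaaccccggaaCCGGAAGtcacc
Mrpl9 (chr3:94443276-94443335, plus strand, NRF1): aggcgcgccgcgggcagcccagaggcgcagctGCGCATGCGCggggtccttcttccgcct
Mrpl52 (chr14:54426849-54426908, plus strand, ETS): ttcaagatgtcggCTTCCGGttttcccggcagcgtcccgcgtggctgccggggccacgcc
Mrps26 (chr2:130563697-130563756, plus strand, ETS): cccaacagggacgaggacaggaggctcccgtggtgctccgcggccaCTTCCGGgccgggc
Mrpl36 (chr13:73330949-73331008, plus strand, YY1): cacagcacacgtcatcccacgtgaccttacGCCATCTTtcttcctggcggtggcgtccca

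Over the whole window, from 250 bases before to 50 after the start, 36 of 73 member promoters (49.3%) held at least 1 of these 3 motifs, against 26.6% of 10698 promoters of tested genes and 13.3% of all 32851 promoters. The ETS letters occurred in 24 member promoters (32.9%), against 18.9% of promoters of tested genes and 8.86% of all promoters. The NRF1 letters occurred in 8 member promoters, against 5.35% and 2.71% of the other sets, and the YY1 letters in 12 (16.4%), against 4.92% and 2.75%. Other promoter motifs occurred at like shares in both sets: GGGCGGG of the SP family was in 43.8% of member promoters and 46.2% of those of tested genes, and CCAAT was in 39.7% and 37.4%. CACGTG, the E-box of MYC, was in 9.59% of member promoters, against 10.4% of those of tested genes, and TATAAA in 6.85%, against 6.95%. Median GC content was 58.4% in member promoters and 59.6% in those of tested genes. These are matches of letters, with no measurement of binding in these cells, and the shares were not tested.

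Many members start back to back with another gene. A gene on the other strand started within 500 bp, pointing away, in 23 of 67 members (34.3%), against 18.7% of 8346 tested genes. In 1 case both genes are members: Mrpl46 and Mrps11 start 42 bp apart on chromosome 7, and their log2 fold changes were 0.20 ± 0.17 and -0.05 ± 0.20 in the authors' deposited table. Some other partners also serve mitochondria, and those named here are examples. Their share among all partners was not counted. Mrpl43 starts 116 bp from Twnk, the mitochondrial DNA helicase, which stood at -0.31 ± 0.29 in the authors' deposited table. Mrps12 starts 147 bp from Sars2, the mitochondrial seryl-tRNA synthetase, at -0.14 ± 0.31, and Mrpl47 starts 308 bp from Ndufb5, a complex I subunit, at -0.19 ± 0.15 in the authors' deposited table. Mrpl49 starts 192 bp from Fau, which encodes a cytosolic ribosomal protein and stood at -0.10 ± 0.12 in the authors' deposited table. None of these partners changed at an adjusted p under 0.05.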

How the data were processed

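The members, gene lists and comparisons were chosen with earlier results of these data known. The expression table is the authors' own comparison of input libraries. Its signal, a mean normalized count, averages the authors' scaled counts over libraries, per the file headers, whose column names are DESeq2's. The log2 fold change and its standard error were deposited by the authors. The Wald score, also deposited, equalled their quotient. The authors deposited a p-value and an adjusted p, which a Benjamini-Hochberg adjustment over 10778 genes gave back (mean count of at least 48.0). The authors deposited YTHDF2 peaks with a ratio (fold enrichment), −log10 p and q, and a score made from q; 3234 repeated rows of 45541 were dropped. exomePeak2 is named in the labels for the m6A list. HISAT2, HOMER, ChIPseeker and mm10 are named in the submitters' processing notes, while the counting, strand setting and YTHDF2 peak caller are not given in the sources used here. Replicates had been combined before deposit.

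Peak lists were joined by symbol, and m6A peaks were placed within 1000 bp of the RefSeq gene. Fold enrichment served to rank peaks within the list. Intervals are the estimate ± 1.96 SE and cover the spread between these libraries. Subunit and origin of members were assigned from textbook knowledge. The calls are the authors' Wald test at 0.05, kept as deposited since the files used hold no counts per library. Named members are the 10 with the largest Wald statistic in each direction, the 6 with most and 4 with fewest reads, the 10 with the strongest YTHDF2 peaks, those with overlapping peaks, and those with 3 peaks or no test. Members named for a feature of their promoter, neighbour or peak span were chosen after their values were seen. Python 3.11.15, pandas 2.3.3, numpy 2.4.6 and scipy 1.17.1 were used, and scripts were tested on simulated data. Alternatives were no filter on low counts, other centres of the fold change, a minimum fold, stricter peaks and a larger overlap.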

Additional observations from a re-analysis of the deposited data

How the results depend on the processing

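The number of called members was 0 under each alternative tried: no filter on low counts, a minimum of 1.5-fold, and fold changes centred on the 25% most abundant genes (median 0.04) or on all tested genes (median -0.01). These centres and the missing filter gave 86.7%, 77.3% and 80.3% of members below 0 and medians of -0.12, -0.08 and -0.09. A minimum fold can only remove calls, so it could not change a count of 0. Without the filter, the Benjamini-Hochberg adjustment of the Wald p ran over more genes and gave Mrps14 0.406 in place of 0.167. That setting was thus no easier to pass. YTHDF2 peaks depend on their threshold: with a −log10 q of at least 10, members with a YTHDF2 peak numbered 21 in place of 36 (28%, against 49.5% of tested genes), members with both kinds 8 in place of 17 (10.7%, against 29.2%), and m6A peaks overlapping a YTHDF2 peak 7 in place of 13. Asking the overlap to cover 50% of the m6A peak also left 7. At that threshold 48.9% of the members' YTHDF2 peaks remained, against 66.0% of the whole list. Asking for a summit in an exon feature left 32 members with a YTHDF2 peak (42.7%, against 59.4% of tested genes), and peaks within 1000 bp of the RefSeq gene left 35. Direct symbol matches could change no count, since 0 of the members' peaks had been joined through a synonym. Signs turned for 4 named members near 0. Centring on the most abundant genes gave Mrps6 -0.0138, Mrpl2 -0.0248 and Mrpl18 -0.000494, and centring on all tested genes gave Mrps12 0.00429. No paired analysis was possible because the files hold no values per library, and for the same reason no replicate could be left out. The centring on all tested genes and the limit of 1000 bp were chosen after the data were seen. The number of libraries and the unknown depth limit the precision.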
